A study of Homo sapiens with 5 samples.

Results

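To characterise a dense field of oestrogen receptor alpha (ERα) peaks near the end of the long arm of chromosome 13 (13q33-q34), all ChIP-seq peaks that lay on that chromosome between 108.4 and 111.8 Mb were taken, a stretch of 3.4 Mb. Positions are those listed by the authors, on build hg18 as named in the submitters' processing notes, counted here from 1. The stretch held 896 of the 6565 peaks in the 4 deposited lists. There were 490 of 2505 peaks in VCaP + E2, 394 of 1833 in VCaP ERα + E2, 12 of 1986 in NCI-H660 + E2 and 0 of 241 in VCaP. No peak lay across a limit. The block had been chosen by the number of peaks per Mb in these same lists, so the peak numbers and densities inside it are a description and were not tested.

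A ChIP-seq peak is a stretch of the genome where the DNA pulled down with an antibody, here against ERα, gave a pile of reads. VCaP cells are an established line from a prostate cancer that responds to androgens, VCaP ERα cells are their derivative with stable overexpression of the receptor, and NCI-H660 cells come from a neuroendocrine prostate tumour. VCaP and NCI-H660 cells of the E2 groups were starved of hormone for 48 h and given 10 nM 17β-oestradiol (E2) for 14 h, whereas the study used several E2 times for ChIP in VCaP ERα cells and ties none of them, nor a dose or starvation, to the VCaP ERα + E2 library. The hormone state of VCaP without E2 is not stated. VCaP cells were used at passages 3 to 4, VCaP ERα at 10 to 12 and NCI-H660 at 4 to 5, the last being kept in a medium that itself holds 10 nM E2. VCaP + E2 and NCI-H660 + E2 were read on a Genome Analyzer II and the other libraries on a HiSeq. Each group had 1 library, so no value has a replicate error. Between VCaP + E2 and VCaP ERα + E2 the instrument, passage, receptor level and any difference in hormone treatment cannot be told apart. Between VCaP and VCaP + E2 the same holds for E2, the instrument and any difference in starvation. The lists hold no expression values, and the identity of the lines could not be checked against marker genes. The lists give no height, score or read number, so the depth behind a peak is unknown.

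ERα is a nuclear receptor that is activated by oestrogen and binds DNA at oestrogen response elements, often in enhancers far from the genes it acts on. In breast cancer cells its sites are typically scattered over all chromosomes. The stretch was set by its positions. It was described as the span of MYO16, IRS2, COL4A1, COL4A2, ING1, ARHGEF7 and SOX1, which was not checked against gene positions of hg18. MYO16 encodes an unconventional myosin, and IRS2 an adaptor that passes on signals of the insulin and insulin-like growth factor receptors. COL4A1 and COL4A2 encode chains of type IV collagen, the main collagen of basement membranes, and are transcribed away from each other. ING1 encodes a tumour suppressor that reads a histone mark of active promoters, ARHGEF7 an exchange factor for small GTPases, and SOX1 a transcription factor of neural progenitors. In the RefSeq table of another build (GRCh38.p14) all 7 genes were found in this order, among 14 protein-coding genes and 44 long non-coding RNA genes from MYO16 to SOX1. The other named protein-coding genes there were RAB20, NAXD (formerly CARKD), CARS2, ANKRD10 and TEX29. An annotation or sequence of hg18 was not used here, so no peak was assigned to a gene, promoter or response element.

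The block made up a large part of the lists of VCaP cells given E2 and almost nothing of the others. It held 19.6% of the VCaP + E2 list (exact binomial 95% interval 18.0 to 21.2%) and 21.5% of VCaP ERα + E2 (19.6 to 23.4%). The share was 0.604% in NCI-H660 + E2 (0.313 to 1.05%). None of the VCaP peaks lay there, or anywhere on chromosome 13, and a count of 0 allows up to 1.24% of that short list. These intervals and limits cover counting error only, and they are too narrow because neighbouring peaks are not independent. Of all chromosome 13 peaks, the block had 89.9% in VCaP + E2, 98.5% in VCaP ERα + E2 and 16.9% in NCI-H660 + E2. In peaks per Mb, the block reached 144 in VCaP + E2 and 116 in VCaP ERα + E2, against 0.603 and 0.0657 on the rest of the chromosome.

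NCI-H660 + E2 had far fewer peaks in the block. It had 3.53 peaks per Mb in the block against 0.647 on the rest of chromosome 13, a ratio of 5.46. Its density was 1.76 peaks per Mb in the 3.4 Mb just below the block and 5.62 in the 2.13 Mb from the block to the last listed peak of the chromosome. The density inside thus lay between those of the neighbouring stretches. In VCaP + E2 the same flanks held 0.882 and 1.87 peaks per Mb (3 and 4 peaks), and in VCaP ERα + E2 0.588 and 0 (2 and 0 peaks).

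Although dense, the peaks covered little of the DNA. VCaP + E2 peaks covered 86.3 kb, or 2.54% of the block, and VCaP ERα + E2 peaks 83.1 kb, or 2.44%. In NCI-H660 + E2 the covered length was 2.06 kb. The block thus held 14.0% of the covered length of VCaP + E2 and 6.59% of that of VCaP ERα + E2, in each case less than its share of the peaks.

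The edges were abrupt against the DNA outside, but VCaP + E2 was sparser at the lower edge than at the upper. It had 31 peaks in the first 500 kb of the block and 68 in the last 250 kb. VCaP ERα + E2 had 48 and 30 there. At the lower edge, the first VCaP ERα + E2 peak ran from 108405288 to 108405491, and the nearest peak of that list below the block ended 640 kb before it, at 107765400. VCaP + E2 began 72.6 kb further in, at 108477871, with a peak of 99 bp, the narrowest width among its block peaks, and its nearest peak below lay 749 kb away. Only 3 VCaP ERα + E2 peaks preceded that first VCaP + E2 peak. At the upper edge the lists ended within 4.26 kb of each other. The last VCaP ERα + E2 peak ran from 111786214 to 111786329 and the last VCaP + E2 peak from 111790475 to 111790586. Beyond them VCaP ERα + E2 had no further peak on the chromosome, and the next VCaP + E2 peak, from 112043696 to 112043988, was 253 kb away. A NCI-H660 + E2 peak from 112043682 to 112044015 lay at that same place. The first NCI-H660 + E2 peak in the block ran from 108744300 to 108744491 and the last from 111781285 to 111781497.

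An inner gap split the field. In VCaP + E2 no peak was listed between 111151792 and 111557056 (405 kb), and in VCaP ERα + E2 none between 111139032 and 111552499 (413 kb). Over all lists together 401 kb were empty, from 111151792 to 111552499. The next longest empty stretch over all lists was 43.3 kb, and within single lists it was 64.3 kb in VCaP + E2 and 43.3 kb in VCaP ERα + E2. NCI-H660 + E2 had no peak in the gap either, but its peaks were so sparse that it also had an empty stretch of 1023 kb elsewhere in the block. The limits of the gap in the dense lists differed by 12.8 kb on the lower side and 4.56 kb on the upper side. Assembly gaps and mappability of the build were not used here, and their part in the gap was not tested.

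The field below the gap was 2.75 Mb long and the field above it 238 kb. Below, VCaP + E2 had 422 peaks (154 per Mb) and VCaP ERα + E2 364 (133 per Mb). Above, VCaP + E2 had 68 (286 per Mb) and VCaP ERα + E2 30 (126 per Mb). The upper field was thus denser than the lower one in VCaP + E2 and slightly less dense in VCaP ERα + E2. NCI-H660 + E2 had 10 peaks below and 2 above. When peaks no more than 100 kb apart were joined into runs of at least 20 peaks, the lower field was the longest of 8 runs by number of peaks in VCaP + E2, and the upper field ranked 3. In VCaP ERα + E2 the lower field ranked 2 of 12, after a run of 607 peaks on chromosome X. Runs on the sex chromosomes were denser than the lower field. Over the length of each run, VCaP + E2 had 277 peaks per Mb on X and 1068 on Y. Its lower field had 158 in this measure and its upper field 291. VCaP ERα + E2 had 579 on X and 818 and 974 on Y, against 133 in the lower field.

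**Figure D1:**
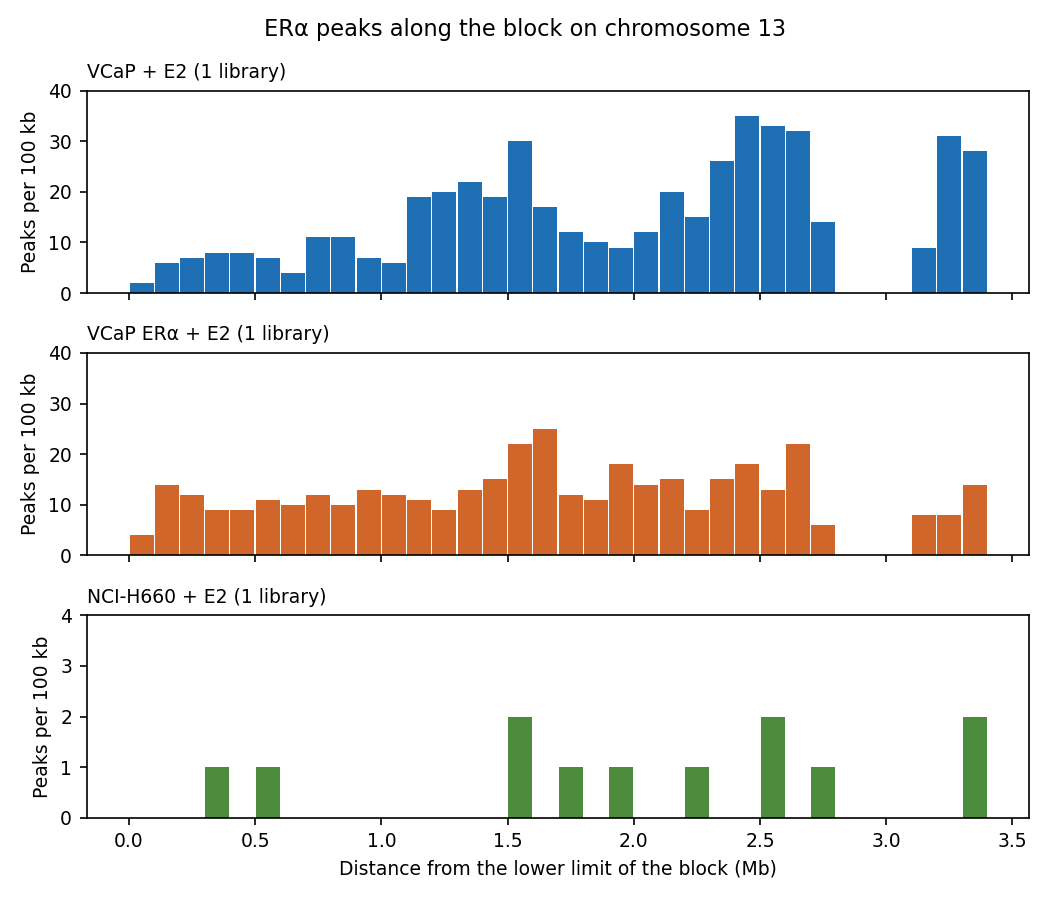
Number of ERα peaks per 100 kb window (vertical axis, peaks) against the distance from the lower limit of the block (horizontal axis, Mb), with a panel for each list (1 library each) and a vertical scale 10 times finer for NCI-H660 + E2. VCaP + E2 rose to 35 peaks and VCaP ERα + E2 to 25 peaks, both lists were empty in the same 3 windows, and NCI-H660 + E2 had at most 2 peaks in a window.

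Along the block, density was read in 34 windows of 100 kb. VCaP + E2 had between 2 and 35 peaks in the 31 windows that were not empty, with a median of 12. Its densest windows were 110800001 to 110900000 with 35 peaks, 110900001 to 111000000 with 33, 111000001 to 111100000 with 32, 111600001 to 111700000 with 31 and 109900001 to 110000000 with 30. These 5 windows held 32.9% of its block peaks. A first rise lay near 109900001 to 110000000, a dip to 9 peaks followed between 110300001 and 110400000, and the highest counts came just before the gap.

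VCaP ERα + E2 was spread more evenly. Its non-empty windows held 4 to 25 peaks, again with a median of 12. The densest was 110000001 to 110100000 with 25 peaks, followed by 109900001 to 110000000 and 111000001 to 111100000 with 22 each, then 110300001 to 110400000 and 110800001 to 110900000 with 18 each. They held 26.6% of its block peaks, and 3 windows were among the densest 5 of both lists. In the window from 110300001 to 110400000, where VCaP ERα + E2 had 18 peaks, VCaP + E2 had 9. In the window from 111600001 to 111700000 the order was the opposite, with 31 peaks of VCaP + E2 and 8 of VCaP ERα + E2. Windows with 20 peaks or more numbered 10 in VCaP + E2 and 3 in VCaP ERα + E2.

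Window counts of both lists went together in part. Pearson's r was 0.605 and Spearman's rank correlation 0.558 over the 34 windows, and 0.467 and 0.416 over the 31 windows with a peak. These values are descriptive, since windows are neighbours on the same chromosome and each list came from a single library. VCaP + E2 had more peaks in 16 windows, VCaP ERα + E2 in 14, and 1 window was equal.

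The balance between the lists shifted from the lower to the upper end. VCaP + E2 gave 55.4% of the 884 peaks of both lists in the block (490 peaks, interval 52.1 to 58.7%). From 108.4 to 109.1 Mb it gave 37.8%, with 42 peaks against 69 of VCaP ERα + E2 (interval 28.8 to 47.5%). Its share was 54.5% in the next 0.7 Mb (96 of 176) and 48.2% from 109.8 to 110.5 Mb (109 of 226). From 110.5 Mb to the gap it was 64.1% (175 of 273, interval 58.1 to 69.8%), and above the gap 69.4% (68 of 98, interval 59.3 to 78.3%). With 1 library per list these intervals cover counting only, and the shift was not tested. In peaks per Mb, VCaP + E2 had 60.0 in the first of these stretches and 137 and 156 in the next ones. The last 2 stretches were measured with part of the empty gap in their length, which lowers their densities. Measured in this way, VCaP + E2 had 250 in the stretch below the gap and 227 in that above it. VCaP ERα + E2 lay between 98.6 and 167 in all 5. Without gap bases, the field above the gap had 286 in VCaP + E2 and 126 in VCaP ERα + E2. The density from 110.5 Mb to the gap was not computed without them, so the last 2 stretches are not ordered by density here.

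**Figure D2:**
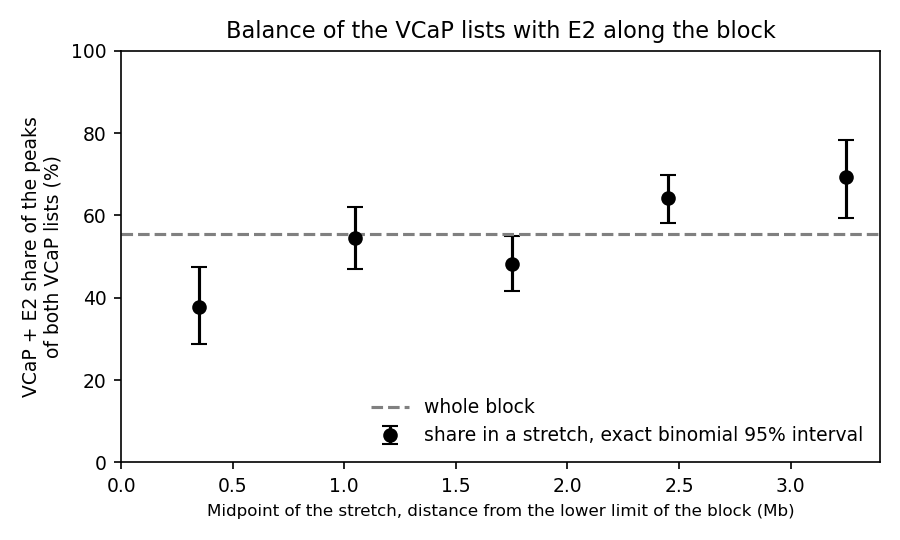
Share of VCaP + E2 among the peaks of VCaP + E2 and VCaP ERα + E2 (vertical axis, %) in 5 stretches of the block, placed by the distance of their midpoint from its lower limit (horizontal axis, Mb). Points are shares, bars exact binomial 95% intervals that cover counting error only, and the dashed line the share in the whole block, 55.4%. The first stretch lies at 37.8% and the last at 69.4%.

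Neighbouring peaks stood a few kb apart. The median distance from the end of a peak to the start of the next was 2.88 kb in VCaP + E2 (quartiles 1.19 and 6.48 kb) and 4.93 kb in VCaP ERα + E2 (1.60 and 10.1 kb). It was 190 kb in NCI-H660 + E2. On the rest of the chromosome the median was 1401 kb in VCaP + E2. Neighbours within 1000 bp made up 21.5% of the VCaP + E2 distances (105 of 489) and 15.8% of those of VCaP ERα + E2 (62 of 393). Apart from the gap, distances over 50 kb occurred 5 times in VCaP + E2, all between 108482471 and 109081157, and 0 times in VCaP ERα + E2. Leaving out the gap, the SD of the distances was 1.52 times their mean in VCaP + E2 and 1.03 times in VCaP ERα + E2.

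In VCaP + E2 the peaks of the block were narrower than those elsewhere. Their widths ran from 99 to 808 bp with a median of 155 bp (quartiles 125 and 181 bp, 95% interval of the median 150 to 161 bp). On the autosomes other than chromosome 13 the median of that list was 171 bp (interval 169 to 174 bp). Peaks under 120 bp numbered 98 of 490 in the block (interval 16.5 to 23.8%) and 82 of 1377 on the other autosomes (5.95%, interval 4.76 to 7.34%). Peaks of 300 bp or more were 9.80% against 24.6% (48 and 339 peaks). On the rest of chromosome 13 the median was 169 bp over 55 peaks, of which 0 were under 120 bp (a count of 0 allows up to 5.45%). The most frequent width was 169 bp both in the block (32 peaks, 6.53%) and on the other autosomes (65 peaks, 4.72%).

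In VCaP ERα + E2 the median width in the block was near that on the other autosomes. The median was 164.5 bp (interval 155 to 171 bp) with quartiles of 127 and 251.5 bp, against 168 bp (163 to 174 bp) over 458 peaks elsewhere on autosomes. Peaks under 120 bp were 20.6% in the block (81 of 394, interval 16.7 to 24.9%) and 15.7% on the other autosomes (72 of 458, interval 12.5 to 19.4%), and the intervals overlapped. Peaks of 300 bp or more were 17.3% against 12.7%, again with overlapping intervals (13.7 to 21.4% and 9.76 to 16.1%). The most frequent width was 101 bp in the block (12 peaks, 3.05%) and 169 bp on the other autosomes (8 peaks, 1.75%). Only 1 peak in the block reached 1000 bp. With the sex chromosomes included, the median outside the block was 242 bp and 191 peaks reached 1000 bp. The 12 NCI-H660 + E2 peaks were 114 to 302 bp wide with a median of 167 bp (interval 119 to 213 bp), against 164 bp on the other autosomes.

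**Figure D3:**
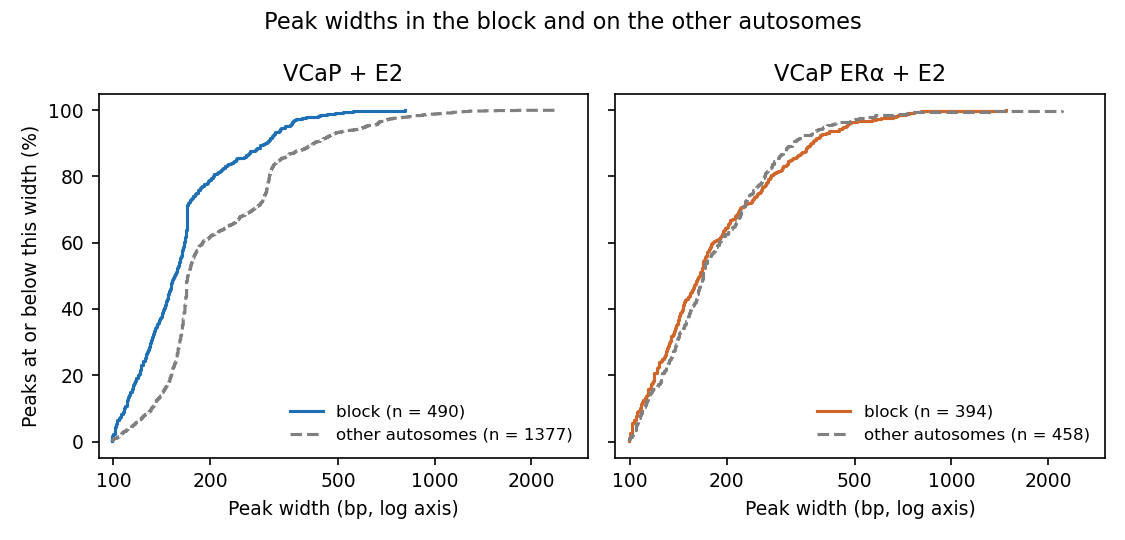
Cumulative share of peaks (vertical axis, %) at or below a given width (horizontal axis, bp, log scale) in VCaP + E2 and VCaP ERα + E2. Coloured lines are the peaks of the block and dashed grey lines those of the autosomes other than chromosome 13. In VCaP + E2 the block line lies to the left, with medians of 155 and 171 bp. The lines of VCaP ERα + E2 lie closer together, with medians of 164.5 and 168 bp.

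The widest members were different places in the dense lists. In VCaP + E2 they ran from 110971113 to 110971920 (808 bp), from 108744227 to 108744836 (610 bp), from 110909999 to 110910554 (556 bp), from 111781209 to 111781727 (519 bp) and from 109558246 to 109558737 (492 bp). Those of 610, 556 and 519 bp overlapped a peak of NCI-H660 + E2, and that of 610 bp also met VCaP ERα + E2. In VCaP ERα + E2 the widest ran from 109931144 to 109932616 (1473 bp), from 110790472 to 110791273 (802 bp), from 111018301 to 111019067 (767 bp), from 109119227 to 109119963 (737 bp) and from 110090779 to 110091513 (735 bp). Among these 5, only the peak of 737 bp overlapped VCaP + E2, and none overlapped NCI-H660 + E2.

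Whether the dense lists marked the same sites was asked next, with 1 bp as the minimum overlap. Of the 490 block peaks of VCaP + E2, 54 met a peak of VCaP ERα + E2 (11.0%, interval 8.39 to 14.1%). Over the whole list this share was 13.7%, so sharing in the block was near the background of the list, most of which came from the sex chromosomes. On the other autosomes it was 4 of 1377 peaks (0.290%). Seen from VCaP ERα + E2, 53 of 394 block peaks overlapped VCaP + E2 (13.5%, interval 10.2 to 17.2%), against 8.84% over the whole list and 0.873% on the other autosomes (4 of 458). The part of the higher peak density of the block in these shares was not tested.

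Most members of a dense list were near a member of the other without overlapping it. The median distance from a VCaP + E2 peak to the nearest VCaP ERα + E2 peak was 2.07 kb, and 386 of the 490 (78.8%) had such a peak within 5 kb. In the other direction the median was 1.51 kb, and 303 of 394 (76.9%) lay within 5 kb. Over the whole lists these shares were 28.9% and 40.3%, and on the other autosomes 2.76% and 6.77%. Neighbours within each dense list were themselves only a few kb apart, and the part of density in these distances was not tested. No VCaP + E2 peak was more than 18.0 kb from VCaP ERα + E2. In contrast 10 VCaP ERα + E2 peaks were over 20 kb from VCaP + E2, all between 108405288 and 109477228, the stretch where VCaP + E2 was sparse.

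Where peaks did overlap, their midpoints were 69.5 bp apart in the median over the 54 pairs (quartiles 21.4 and 120 bp, range 2.5 to 334.5 bp), and in 40 pairs at least 50% of the shorter peak was covered. Starts within 20 bp of each other were found in 8 pairs (14.8%). Outside the block 282 of 292 pairs had such cover and 4 (1.37%) such starts, with midpoints 1304 bp apart in the median. On the other autosomes there were only 4 pairs, of which 4 had such cover and 0 such starts. Shared VCaP ERα + E2 peaks had a median width of 212 bp, and the 341 that were not shared 158 bp. Among VCaP + E2 peaks these medians were 157.5 and 154 bp. In VCaP ERα + E2 the shared share was 8.28% of peaks under 150 bp (14 of 169), 16.6% of those from 150 bp to under 300 bp (26 of 157) and 19.1% of those of 300 bp or more (13 of 68, interval 10.6 to 30.5%). The first and last of these intervals overlapped, since the first ran from 4.60 to 13.5%. With a minimum overlap of 1 bp a wider peak meets another more easily, and the part of width itself in these values was not tested. Sharing was found all along the block. Of VCaP + E2 peaks it was 11.9% in the lowest stretch (5 of 42), 6.25% in the next (6 of 96), then 12.8% (14 of 109), 11.4% (20 of 175) and 13.2% above the gap (9 of 68), with overlapping intervals. Seen from VCaP ERα + E2 the share was higher towards the upper end, with 7.25% (5 of 69), 7.5% (6 of 80), 11.1% (13 of 117), 20.4% (20 of 98) and 30% (9 of 30) in the same order. No intervals were computed for these shares by stretch, and the last rests on 30 peaks. The density of VCaP + E2 was also higher in the last 2 of these stretches than in the others, and its part in the share was not tested.

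The comparison with NCI-H660 + E2 was different in kind. Of VCaP + E2 peaks in the block, 8 of 490 overlapped NCI-H660 + E2 (1.63%, interval 0.707 to 3.19%), against 34.9% over the whole list, 52.7% on the rest of chromosome 13 (29 of 55, interval 38.8 to 66.3%) and 50.1% on the other autosomes (690 of 1377). As NCI-H660 + E2 had 12 peaks in the block, a high share was not possible there. Seen from NCI-H660 + E2 the shares in the block were not low. Of the 12 NCI-H660 + E2 block peaks 8 overlapped VCaP + E2 (66.7%, interval 34.9 to 90.1%). The share was 45.3% over the whole list and 49.2% on the rest of chromosome 13 (29 of 59), both inside that interval. VCaP ERα + E2 was overlapped by 5 of the 12 (41.7%, interval 15.2 to 72.3%), against 0.403% over the whole list and 3 of 1974 peaks outside the block. Of VCaP ERα + E2 block peaks 5 of 394 overlapped NCI-H660 + E2 (1.27%, interval 0.413 to 2.94%), against 0.436% over the whole list.

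**Figure D4:**
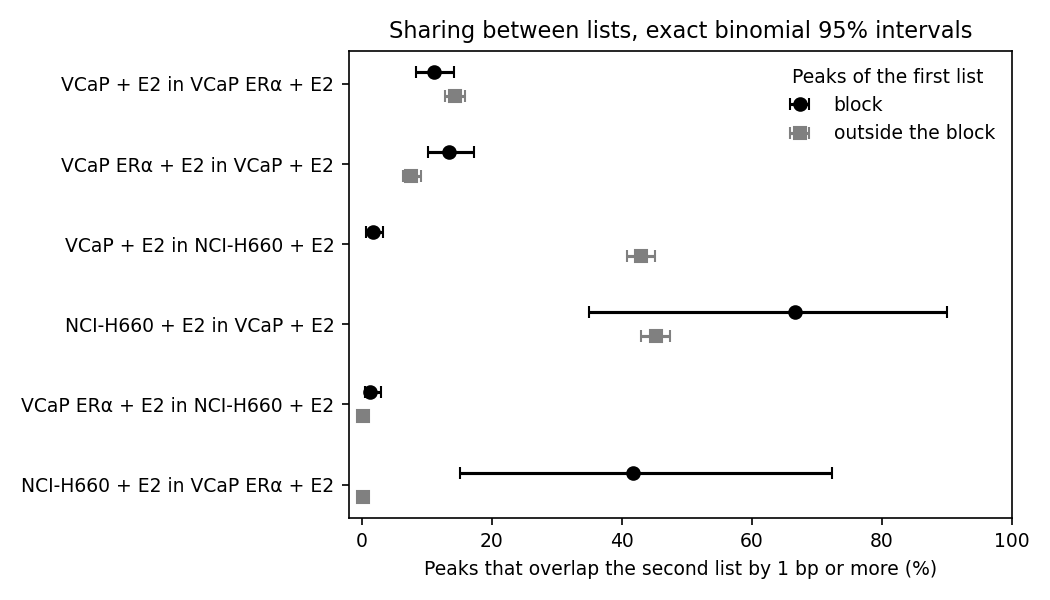
Share of the peaks of a first list that overlap a second list by at least 1 bp (horizontal axis, %) for 6 ordered pairs of lists (vertical axis). Black circles are peaks of the first list in the block, grey squares its peaks outside the block, and bars exact binomial 95% intervals. VCaP + E2 in NCI-H660 + E2 falls from 43.0% outside to 1.63% in the block, and NCI-H660 + E2 in VCaP ERα + E2 goes from 0.152% to 41.7%.

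The 12 NCI-H660 + E2 members were looked at singly. Either VCaP list with E2 was overlapped by 11 of them (91.7%, interval 61.5 to 99.8%), against 29 of 59 on the rest of chromosome 13 (49.2%, interval 35.9 to 62.5%) and 894 of 1974 outside the block (45.3%, interval 43.1 to 47.5%). All 12 lay within 5 kb of a peak of each dense list, and what density alone would give was not computed. The exception ran from 109954778 to 109954896 (119 bp), 1.23 kb from VCaP + E2 and 3.25 kb from VCaP ERα + E2. Both dense lists were overlapped directly by 2 members. The first of these ran from 111135712 to 111135828, next to VCaP + E2 from 111135781 to 111135935 and VCaP ERα + E2 from 111135770 to 111135985. The other ran from 111701826 to 111702010, with VCaP + E2 from 111701722 to 111702036 and VCaP ERα + E2 from 111701967 to 111702231.

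VCaP + E2 alone was overlapped by 6 members. They ran from 108744300 to 108744491, from 108931726 to 108931897, from 109975053 to 109975176, from 110910197 to 110910435, from 110941709 to 110941822 and from 111781285 to 111781497. VCaP ERα + E2 alone was overlapped by the remaining 3, from 110165602 to 110165903, from 110320789 to 110320909 and from 110664904 to 110665065. The 8 VCaP + E2 peaks that overlapped NCI-H660 + E2 were 126 to 610 bp wide with a median of 263.5 bp, and the other 482 had a median of 153.5 bp. Of VCaP + E2 peaks of 300 bp or more 4 of 48 were shared (8.33%), and of those under 150 bp 1 of 222 (0.450%, interval 0.0114 to 2.48%). Here too a wider peak meets another more easily under the overlap rule, and the part of width itself was not tested.

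Pairs of overlapping peaks were then compared by their alignment. The 8 block pairs of VCaP + E2 and NCI-H660 + E2 had midpoints 20 to 136 bp apart (median 41.25 bp), and 0 of them had starts within 20 bp. On the other autosomes the median over 704 pairs was 12.25 bp, and 417 pairs (59.2%) had starts within 20 bp. Midpoints within 50 bp were found in 5 of the 8 block pairs (62.5%, interval 24.5 to 91.5%) and in 79.4% on the other autosomes (559 pairs, interval 76.2 to 82.3%), so the intervals overlapped. In 1 of the block pairs the ends coincided, at 108931897. The 5 pairs of VCaP ERα + E2 and NCI-H660 + E2 in the block were 85.5 to 181 bp apart at their midpoints.

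**Figure D5:**
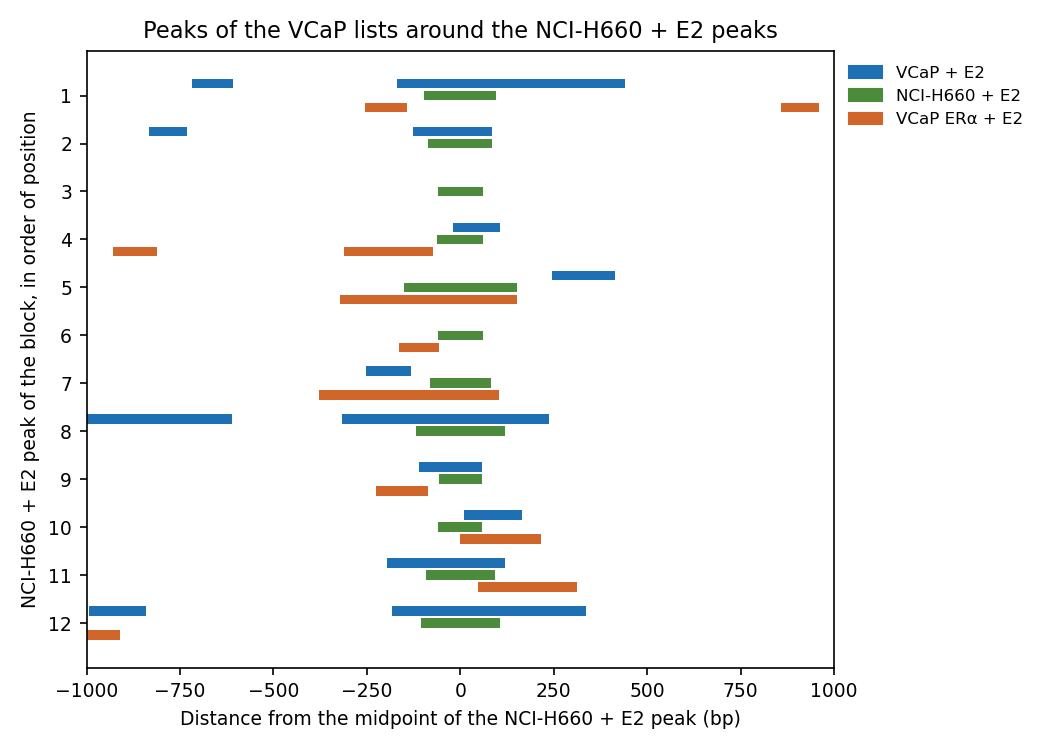
The 12 NCI-H660 + E2 peaks of the block in order of position (vertical axis, number of the peak), each centred on its midpoint, with the VCaP + E2 and VCaP ERα + E2 peaks within 1000 bp of it (horizontal axis, bp from the midpoint). Bars show the extent of peaks. Both dense lists overlap the green bar of peaks 10 and 11, and neither has a peak within 1000 bp of the midpoint of peak 3.

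Merged where they overlapped, the members made 831 sites, of which 772 were in 1 list (92.9%), against 79.4% of 5197 sites over all chromosomes and 75.2% of 2876 sites on the other autosomes. VCaP + E2 alone had 432 sites, VCaP ERα + E2 alone 339 and NCI-H660 + E2 alone 1. Sites of exactly 2 lists joined VCaP + E2 with VCaP ERα + E2 in 48 cases, and NCI-H660 + E2 with VCaP + E2 in 4 and with VCaP ERα + E2 in 2. The 5 sites with peaks of 3 lists ran from 108744142 to 108744836, 110664608 to 110665087, 110941540 to 110941824, 111135712 to 111135985 and 111701722 to 111702231. At the first 3 of them a middle peak joined the others, which did not overlap each other. Of the VCaP + E2 block peaks 432 overlapped no other list (88.2%, interval 85.0 to 90.9%), against 51.4% over the whole list and 49.2% on the other autosomes. For VCaP ERα + E2 the number was 339 (86.0%, interval 82.2 to 89.3%), against 88.8% over the whole list. On the other autosomes it was 437 of 458 for that list (95.4%, interval 93.1 to 97.1%), a higher share than in the block. The block thus held 33.5% of all VCaP + E2 peaks without a match (432 of 1288, interval 31.0 to 36.2%) and 20.8% of those of VCaP ERα + E2 (339 of 1628, interval 18.9 to 22.9%). For NCI-H660 + E2 the number was 1 of 12, against 54.4% over the whole list. On the other autosomes most matches of VCaP + E2 were with NCI-H660 + E2 (690 of 1377 peaks, against 4 with VCaP ERα + E2). NCI-H660 + E2 had only 12 peaks in the block. The part of this in the shares without a match and in the sites of 1 list was not tested.

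Sharing with VCaP could not arise, since that list had no peak there. Of VCaP + E2 peaks 0 of 490 overlapped it (0.838% over the whole list), and of VCaP ERα + E2 peaks 0 of 394 (2.35% over the whole list). Of NCI-H660 + E2 peaks 0 of 12 overlapped it (0.554% over the whole list). The VCaP input library was not analysed here, so the copy number of the block and its background reads were not measured, and their part in its density was not tested.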

How the data were processed

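The members, windows and alternatives were chosen with earlier results of these data known. Chromatin was fixed with formaldehyde, sonicated and precipitated with 1 ERα antibody, and the authors deposited a list of peaks per library as chromosome, start and end in bp, with no other value. The study names ChIPSeeqer as peak caller. The submitters' processing notes name hg18 and CASAVA 1.8, and the aligner, threshold, duplicate filter and use of input are not given in the sources used here. The number of peaks in a list can move with depth and local background, which the lists do not show.

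Groups were taken from the labels. Starts were read as counted from 0. Peaks were assigned to windows and stretches by midpoint, shares carry exact (Clopper-Pearson) 95% intervals, medians order-statistic intervals, and 3 counts were taken as the upper limit where a count was 0. No test between conditions was made, since each group had 1 library. Described regions are, by rule, the first and last peaks, the 5 widest peaks and 5 densest windows per list, the NCI-H660 + E2 members and sites in 3 lists. The stretches used for the balance between lists, the comparison with other autosomes, distances between lists and width classes were chosen after the data were seen. Overlap, merging, runs and windows were tested on simulated data. Planned counts of peaks per gene and of response elements need an annotation or sequence of hg18 and were not run. Python 3.11.15, numpy 2.4.6, scipy 1.17.1 and matplotlib 3.10.9 were used.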

Additional observations from a re-analysis of the deposited data

How the results depend on the processing

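Of 67 alternative values 50 stayed near the reported one, 17 moved and 0 reversed, where near means within 1.5 times for counts, densities and lengths and inside the 95% interval for shares, median widths and the correlation. With the wider 50% of each list, the block held 166 peaks of VCaP + E2 (13.2% of the list), 118 of VCaP ERα + E2 (12.9%) and 6 of NCI-H660 + E2. Numbers fall there by construction, but shares need not. The shares of the dense lists fell from 19.6% and 21.5%. Median widths in and outside the block were 155 and 172 bp in VCaP + E2, and 164.5 and 242 bp in VCaP ERα + E2. Without chromosomes X and Y the share of the block rose by construction, to 25.5% of VCaP + E2 and 45.9% of VCaP ERα + E2. With peaks within 1000 bp merged it was 33.0% of VCaP ERα + E2. Merging raised the median width of VCaP + E2 to 164 bp. Sharing between the dense lists depended on its rule. VCaP + E2 in VCaP ERα + E2 was 8.16% with 50% of the shorter peak covered, 28.0% with midpoints within 1000 bp, 18.8% with peaks set to 500 bp and 5.42% with the wider 50%. Seen from VCaP ERα + E2 these values were 10.2%, 34.8%, 22.1% and 7.63%. The cause was not tested for the wider 50%. Limits set by runs with gaps of up to 50 or 200 kb gave the same members, windows of 50 or 250 kb left the highest density within 1.5 times, and the inner gap was 431 kb in VCaP + E2 and 428 kb in VCaP ERα + E2 with the wider 50%. The restriction of the correlation to windows with a peak was chosen after the data were seen. No paired analysis was possible because only 1 library stood behind each list, which also leaves no replicate to omit. Unknown read numbers limit every comparison of peak numbers between lists, and the 12 NCI-H660 + E2 peaks limit each share taken of them.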
